A study of Mus musculus with 9 samples.

Results

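The phagocytosis checkpoints and the TAM receptor system comprised 10 genes here, chosen by symbol for what their proteins do and not for how they were expressed. They were Cd47, Sirpa, Cd24a, Siglecg, Calr, Mertk, Axl, Tyro3, Gas6 and Pros1. All 10 were among the 54429 symbols of the count table, and all 10 passed the low-count filter that left 15931 genes for testing. RNA-seq was performed on whole subcutaneous NB9464 tumors, grown from 4000000 injected cells of a mouse neuroblastoma line with amplified MYCN in wild-type C57BL/6 mice 4 to 6 weeks old. Treatment started at a tumor volume of 250 mm3. The Vehicle group received no agent that the labels name. The R788 + anti-PDL1 group received R788 (fostamatinib, a prodrug inhibitor of the kinase Syk) at 50 mg/kg and an antibody that blocks the checkpoint ligand PD-L1, given on 4 days between day 28 and day 37. The Rad + R788 + anti-PDL1 group received the same agents and 10 Gy of radiation, and its tumors are called irradiated replicates 1 to 3. Each group held 3 tumors. All 9 tumors came from 1 cell line, and every library mixed tumor cells with host cells. Fewer cells of a type and less RNA per cell can therefore not be told apart in any value below. The labels do not say that each tumor came from its own mouse, so p-values measure the spread between these samples.

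Macrophages decide whether to engulf a neighbouring cell from signals on its surface. CD47 and CD24 are "do not eat me" signals, read by the inhibitory receptors SIRP alpha and, for CD24, Siglec-G in the mouse. Calreticulin, when it moves from the endoplasmic reticulum to the surface of a dying cell, is an "eat me" signal. Dying cells also expose phosphatidylserine, which the secreted proteins Gas6 and protein S (Pros1) bridge to the receptor tyrosine kinases Tyro3, Axl and Mertk, together called the TAM receptors. Gas6 binds all of these receptors, while protein S binds Tyro3 and Mertk. Uptake through the TAM receptors clears dead cells without inflammation and dampens cytokine responses of the engulfing cell.

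The libraries held 18276683 to 23397886 counts each. Values are given as CPM, counts brought to a common library size, scaled by TMM, a factor per library that aligns the bulk of genes, and 1 count was worth 0.0382 to 0.0738 CPM. A count of 0 allows up to 3 counts, or 0.115 to 0.221 CPM, and this covers counting error only. Irradiated replicate 1 stood apart, with correlations of its log2 CPM to the other libraries across genes of 0.86 to 0.91 and 1.97% mitochondrial counts against 3.48% to 5.71% in the others. Irradiated replicate 3 held the highest summed level of 13 macrophage markers, at 2060 CPM against 336 to 819 CPM in the other 8 tumors. Of 12 markers of noradrenergic neuroblasts, Hand2 had 6545 to 12901 and Mycn 1265 to 6107 counts, while Th had 0 counts in all 9 and Dbh had 1 count in 1 tumor, so these catecholamine enzymes of the labelled tumor type were at or near 0.

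With edgeR, 0 of the 10 genes passed an adjusted p-value of 0.05 in any of the 3 comparisons. Over all genes, that threshold was passed by 0.678% in R788 + anti-PDL1 relative to Vehicle, 0.0439% in irradiated tumors relative to Vehicle and 0.00628% in irradiated tumors relative to R788 + anti-PDL1. An unadjusted p-value under 0.05 was obtained for Pros1 alone in the first and second comparisons, where 11.7% and 13.2% of all genes had one, and for 0 of the 10 in the third, where 18.4% did. In the first comparison 5.96% of all genes were higher and 5.69% lower at that level, in the second 7.71% and 5.51%, and in the third 11.7% and 6.65%. DESeq2 called Pros1 in the first comparison (4.86% of all genes called) and in the second (3.87%), and 0 of the 10 in the third (5.63%). Limma-voom with sample quality weights, which called 30.3%, 12.6% and 19.4% of all genes, called 3 of the 10 (Cd24a, Siglecg and Tyro3), 1 (Pros1) and 2 (Tyro3 and Pros1). The median log2 fold change of the 10 genes was 0.45, 0.09 and 0.02 in the 3 comparisons, beside -0.02, 0.05 and 0.04 over all genes tested. The comparisons share groups, so their values are not independent of each other.

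**Figure D1:**
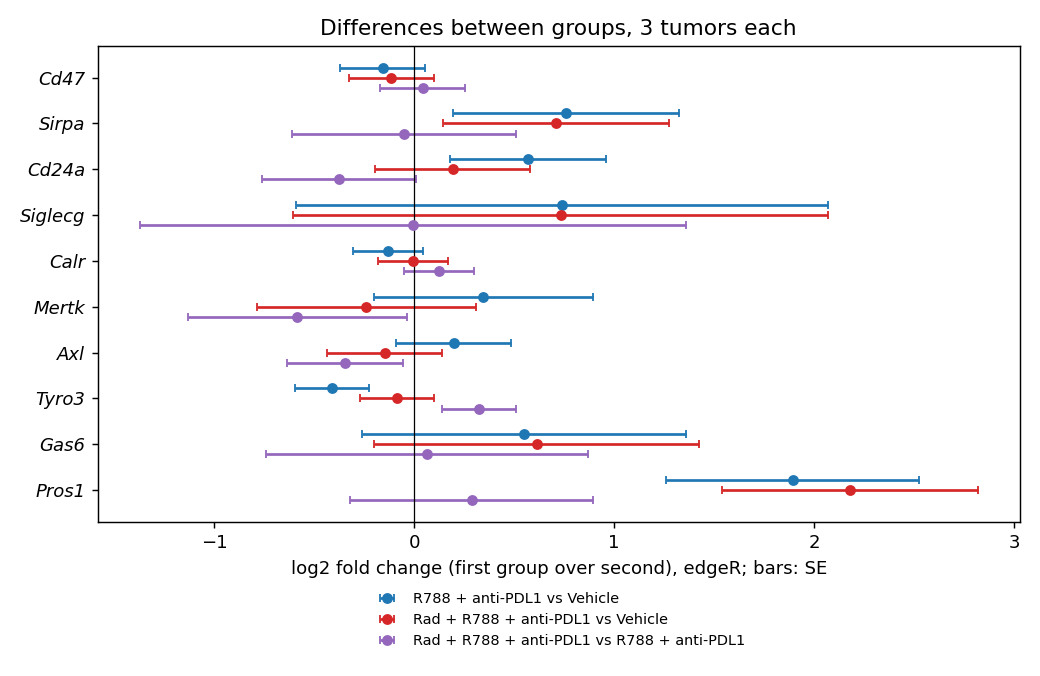
Log2 fold change (x axis, first group over second, edgeR) of each gene in the 3 comparisons of 3 tumors each, with bars of 1 SE. Pros1 lies farthest from 0 against Vehicle, at 1.89 and 2.18, and Siglecg has the widest bars.

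Per kb of exon, the only scale on which levels of different genes are compared here, Calr was the most abundant of the 10 and Siglecg the least. In Vehicle tumors the levels were 213 ± 8.27 CPM per kb (SD, n = 3) for Calr, 26.3 ± 16.8 for Cd24a and 25.8 ± 1.88 for Axl. Tyro3 (8.61 ± 0.643 CPM per kb), Cd47 (8.61 ± 1.89), Sirpa (7.40 ± 3.68) and Gas6 (5.02 ± 2.52) followed. Mertk was at 4.05 ± 0.290, Pros1 at 1.27 ± 0.224 and Siglecg at 0.0661 ± 0.0842 CPM per kb. Cd24a and Axl did not differ beyond their spread, nor did the neighbours in the order from Tyro3 to Mertk. Axl was thus the leading TAM receptor. Per exon length it stood at 2.56 to 3.42 times the level of Tyro3, the next in order, in the 3 Vehicle tumors, 4.04 to 5.23 times in R788 + anti-PDL1 tumors and 1.57, 3.08 and 4.00 times in irradiated tumors. It stood at 5.49 to 7.32 times the level of Mertk per exon length in the 3 Vehicle tumors, 4.29 to 10.1 times in R788 + anti-PDL1 tumors and 5.05 to 13.8 times in irradiated tumors. Exon length was the union of the annotated exons, which is longer than the transcript in use where isoforms differ.

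**Figure D2:**
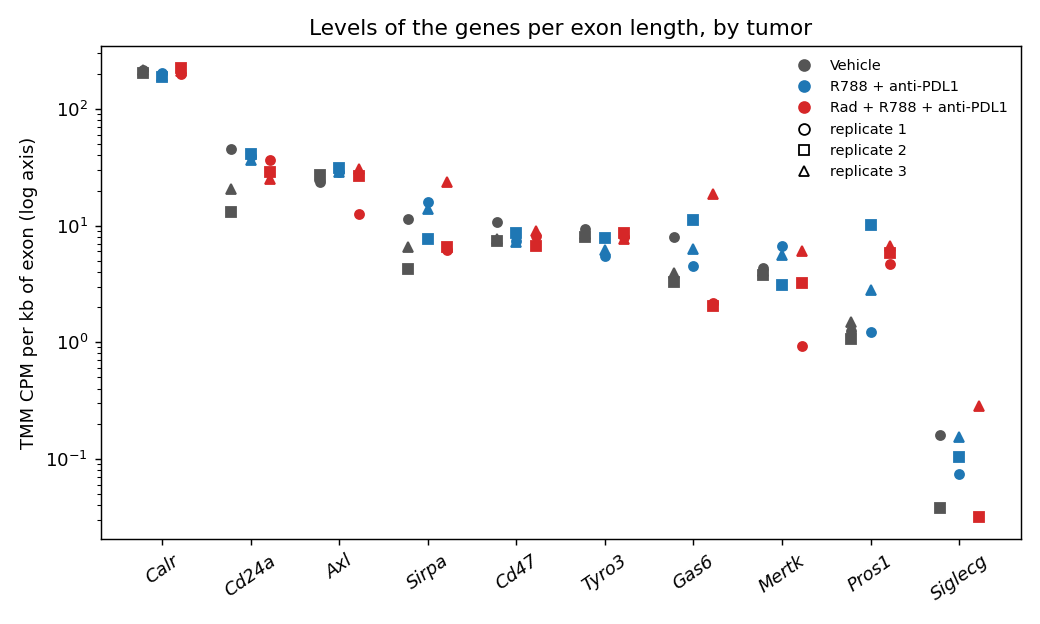
Level of each gene per kb of exon (y axis, log scale) in the 9 tumors, ordered by the mean over all tumors and colored by group. Calr lies above 187 CPM per kb in every tumor, and the Siglecg values of 0 in Vehicle replicate 3 and irradiated replicate 1 are not drawn.

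Cd47 (ENSMUSG00000055447.19, GRCm38 chromosome 16, 49800533 to 49915010), the most widely expressed of the "do not eat me" signals, differed little between tumors. It stood at 67.6, 46.2 and 48.3 CPM in Vehicle replicates 1 to 3, at 46.3, 54.2 and 45.0 CPM in R788 + anti-PDL1 tumors, and at 51.3, 41.9 and 56.6 CPM in irradiated tumors. Vehicle replicate 1 was the highest tumor, and the groups overlapped in each comparison. The log2 fold changes were -0.16 ± 0.21 (SE) in R788 + anti-PDL1 relative to Vehicle, -0.11 ± 0.21 in irradiated tumors relative to Vehicle and 0.04 ± 0.21 between the treated groups, with edgeR adjusted p-values of 0.838, 0.801 and 0.926. Without Vehicle replicate 1 the differences from Vehicle were 0.06 and 0.09.

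Sirpa (ENSMUSG00000037902.18, chromosome 2, 129592835 to 129632228), which encodes the receptor for CD47 on myeloid cells and neurons, varied far more than its ligand. It stood at 56.1, 20.7 and 32.1 CPM in Vehicle tumors, 78.3, 38.0 and 67.9 CPM in R788 + anti-PDL1 tumors, and 30.1, 32.1 and 115 CPM in irradiated tumors. The groups overlapped, and irradiated replicate 3 was the highest of all tumors. The log2 fold changes were 0.76 ± 0.57 and 0.71 ± 0.57 against Vehicle (adjusted p = 0.694 and 0.555) and -0.05 ± 0.56 between the treated groups (adjusted p = 0.966). Without irradiated replicate 3, Sirpa was at -0.23 in irradiated tumors relative to Vehicle and at -0.98 between the treated groups. Across the 9 libraries Sirpa followed the summed level of the 13 macrophage markers, with Pearson r = 0.90 and Spearman rho = 0.92. It also followed the summed level of 7 T cell markers (r = 0.90, rho = 0.88), so the 9 points do not separate these cell types. Cd4 alone made up 72.2% of the T cell sum, and Cd3e had at most 54 counts in a tumor. Without irradiated replicate 3 the r of Sirpa with each of these sums was 0.84. These points share libraries and scaling, and no p-value was attached. The summed macrophage level was 336 to 728 CPM in Vehicle, 785 to 819 CPM in R788 + anti-PDL1 and 396 to 2060 CPM in irradiated tumors, and the T cell sum 1.70 to 3.98, 4.395 to 23.9 and 1.84 to 33.6 CPM. The part of these cells in the Sirpa values was not tested.

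Cd24a (ENSMUSG00000047139.9, chromosome 10, 43578284 to 43584265) encodes the small lipid-anchored protein CD24. It stood at 117, 33.8 and 52.8 CPM in Vehicle tumors, 101, 105 and 94.8 CPM in R788 + anti-PDL1 tumors, and 93.5, 74.5 and 64.3 CPM in irradiated tumors. Vehicle spanned the widest range, and each irradiated tumor lay below each R788 + anti-PDL1 tumor. Cd24a was the only one of the 10 genes without overlap in this comparison, where 27.4% of all genes had none and 13.2% were lower without overlap. The log2 fold change was -0.38 ± 0.39 (adjusted p = 0.599). Against Vehicle it was 0.57 ± 0.39 in R788 + anti-PDL1 tumors (adjusted p = 0.654) and 0.19 ± 0.39 in irradiated tumors (adjusted p = 0.816). Without Vehicle replicate 1 these values were 1.24 and 0.85, and without Vehicle replicate 2 they were 0.24 and -0.13. Of the 31-base words of Cd24a transcripts, 4.98% also occur in transcripts of other genes, so some of its counts could belong to copies of the gene. Gm6212 was the gene that shared the most words.

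Siglecg (ENSMUSG00000030468.12, chromosome 7, 43408204 to 43418358), the inhibitory lectin that reads CD24 and is best known on B cells, was close to the detection limit. It had 14, 4 and 0 counts in Vehicle tumors, 8, 13 and 18 counts in R788 + anti-PDL1 tumors, and 0, 3 and 30 counts in irradiated tumors. The 3 R788 + anti-PDL1 tumors all had counts above the floor, while each of the other groups held a tumor at 0. The log2 fold changes of 0.74 ± 1.33, 0.73 ± 1.34 and -0.01 ± 1.37 (adjusted p = 0.884, 0.797 and 0.998) carried the largest errors of the 10 genes. Without irradiated replicate 3 the value in irradiated tumors relative to Vehicle was -1.83. The value in R788 + anti-PDL1 tumors moved to 2.44 when Vehicle replicate 1 was left out and to 0.16 when Vehicle replicate 3 was, and it was 3.55 in the voom fit with sample quality weights that called it (adjusted p = 0.018). At 0 to 30 counts per tumor the size of a difference in Siglecg was thus not fixed by these data. The summed level of 7 B cell markers was 1.08 to 4.75 CPM over the 9 tumors, and 7.01% of the 31-base words of Siglecg are shared with other genes.

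**Figure D3:**
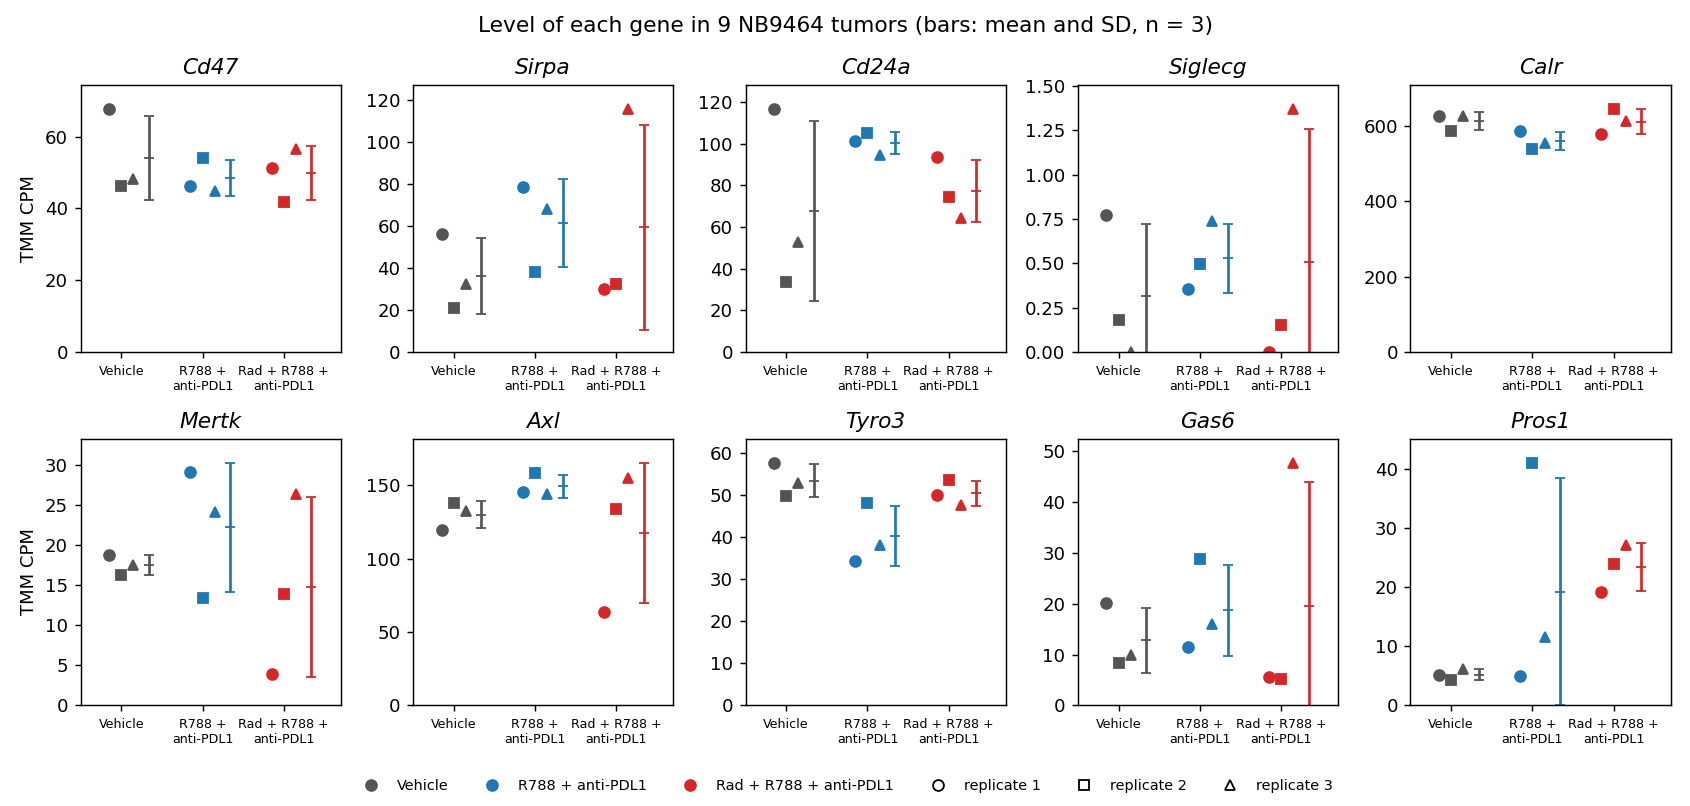
Level of each gene (y axis, TMM CPM, from 0) in the tumors of each group, with symbols for the replicates and bars for the mean and SD of 3 tumors, which are cut at 0. Pros1 separates irradiated from Vehicle tumors, whereas Sirpa, Gas6 and Siglecg are highest in irradiated replicate 3 and Mertk and Axl are lowest in irradiated replicate 1.

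Calr (ENSMUSG00000003814.8, chromosome 8, 84841850 to 84846934), which encodes the "eat me" signal calreticulin, was the steadiest of the 10 genes. It stood at 627, 586 and 626 CPM in Vehicle tumors, 587, 539 and 554 CPM in R788 + anti-PDL1 tumors, and 578, 644 and 612 CPM in irradiated tumors. The highest tumor was 1.19 times the lowest, and only 0.119% of all tested genes had an SD of log2 CPM over the 9 tumors as low as that of Calr. The groups overlapped in each comparison. The log2 fold changes were -0.13 ± 0.18, 0.00 ± 0.18 and 0.13 ± 0.18, with adjusted p-values of 0.835, 0.992 and 0.706. These are levels of RNA, and calreticulin exposure on the cell surface was not measured by this assay.

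Calreticulin belongs to a group of chaperones of the endoplasmic reticulum whose promoters are known for a shared stress response element. The element was searched as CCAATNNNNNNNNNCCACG on both strands in RefSeq promoter windows (GRCm38.p6, from 250 bases before to 50 after each start). It was found in 39 of 32851 windows, or 0.119%. Among the 10 genes, 8 had a window and 1, Calr, held the element. Windows of Sirpa and Cd24a were missing. Of 14 calreticulin partners, 13 had a window and 4 held it, namely Hspa5, Hsp90b1, Canx and Pdia6. The stretches around the element of Calr, Hspa5 and Pdia6 are shown because their RNA behaved differently in the same tumors. Those of Hsp90b1 and Canx are not shown. Capitals mark the outer parts of the element, which lies on the opposite strand in Calr, and each stretch is written 5′ to 3′ on the strand of its gene, at chr8:84847035-84847133 (minus), chr2:34771985-34772083 (plus) and chr12:17266451-17266549 (plus).
Calr: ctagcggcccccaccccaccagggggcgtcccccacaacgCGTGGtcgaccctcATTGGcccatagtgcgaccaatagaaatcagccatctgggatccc
Hspa5: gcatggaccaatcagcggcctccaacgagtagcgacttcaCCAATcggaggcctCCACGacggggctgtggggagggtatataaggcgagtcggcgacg
Pdia6: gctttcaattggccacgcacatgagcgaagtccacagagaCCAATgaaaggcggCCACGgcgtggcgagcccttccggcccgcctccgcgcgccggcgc
A match of letters is a description and not a shown binding site.

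Hspa5 (BiP, the main chaperone and stress sensor of this compartment) and Pdia6 (a disulfide isomerase), both chosen after their values were seen, moved over a wider range than Calr. Hspa5 stood at 575, 555 and 667 CPM in Vehicle, 571, 426 and 454 CPM in R788 + anti-PDL1, and 955, 671 and 622 CPM in irradiated tumors. Pdia6 stood at 316, 235 and 258 CPM, 228, 209 and 219 CPM, and 519, 298 and 275 CPM in the same order. Irradiated replicate 1 was the highest tumor for both, while its Calr level of 578 CPM was above only the R788 + anti-PDL1 replicates 2 and 3. Hsp90b1, which also holds the element, was highest in irradiated replicate 1 too, by a narrow margin. It stood there at 614 CPM against 427 to 608 CPM in the other tumors. Canx, the remaining partner with the element, was lowest in that tumor, at 289 CPM against 437 to 636 CPM. Of the 14 partners, 0 passed the adjusted threshold in any comparison, and 1 (lower) and 0 met the unadjusted one in the first and second comparisons, beside 11.7% and 13.2% of all genes. Between the treated groups 7 had an unadjusted p-value under 0.05, 6 of them higher in irradiated tumors. Of all genes, 11.7% were higher at that level. In irradiated replicates 1 to 3, Atf4 stood at 378, 181 and 168 CPM and Manf at 173, 75.6 and 83.4 CPM. Ddit3, Sdf2l1, Pdia3, Pdia6, Hspa5 and Hsp90b1 were also highest of these tumors in replicate 1. Xbp1, Edem1 and Dnajb9 were highest in replicate 3, and Canx, Pdia4 and Eif2ak3 were lowest in replicate 1. How many partners keep such a p-value without irradiated replicate 1 was not tested. Xbp1, a transcription factor of the unfolded protein response, had the lowest p-value between the treated groups, with 0.66 ± 0.17 (adjusted p = 0.191). It was followed by the chaperone subunit Sdf2l1 with 0.91 ± 0.30 (adjusted p = 0.223). In R788 + anti-PDL1 relative to Vehicle the lowest p-values were those of Xbp1 (-0.41 ± 0.17, adjusted p = 0.374) and Pdia3 (-0.36 ± 0.24, adjusted p = 0.643). In irradiated tumors relative to Vehicle they were those of Canx (-0.52 ± 0.25, adjusted p = 0.390) and Manf (0.62 ± 0.31, adjusted p = 0.406). Without irradiated replicate 1, Sdf2l1 was at 0.43 in its comparison, Manf at 0.17 and Canx at -0.30.

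Mertk (ENSMUSG00000014361.5, chromosome 2, 128698956 to 128802894), the TAM receptor by which macrophages take up apoptotic cells, was even in Vehicle tumors and scattered in treated ones. It stood at 18.8, 16.3 and 17.6 CPM in Vehicle, 29.2, 13.5 and 24.2 CPM in R788 + anti-PDL1, and 3.98, 14.0 and 26.4 CPM in irradiated tumors. The groups overlapped, and irradiated replicate 1 was the lowest tumor. The log2 fold changes were 0.35 ± 0.55, -0.24 ± 0.55 and -0.58 ± 0.55 (adjusted p = 0.866, 0.839 and 0.561). Without irradiated replicate 1 the latter values were 0.24 and -0.13, and without irradiated replicate 3 they were -0.96 and -1.30. Mertk followed the macrophage markers less closely than Sirpa did, with r = 0.35 over the 9 libraries, 0.64 without irradiated replicate 1 and 0.18 without irradiated replicate 3. In irradiated replicate 1 the macrophage markers summed to 609 CPM, above 3 other tumors, while Mertk was at its lowest.

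Axl (ENSMUSG00000002602.16, chromosome 7, 25757273 to 25788705) is the TAM receptor with the highest affinity for Gas6 and is also made by many tumor and stromal cells. It stood at 119.6, 138 and 132 CPM in Vehicle tumors, 145, 158 and 144 CPM in R788 + anti-PDL1 tumors, and 63.6, 134 and 155 CPM in irradiated tumors. Each R788 + anti-PDL1 tumor lay above each Vehicle tumor, and Axl and Tyro3 were the 2 of the 10 genes whose groups did not overlap in this comparison. Over all genes 30.1% did not overlap, 13.6% higher and 16.5% lower. The log2 fold change there was 0.20 ± 0.29 (adjusted p = 0.852). The fit that gave this error included irradiated replicate 1, which is not in the comparison. Without that tumor the value was 0.22 ± 0.11 (edgeR adjusted p = 0.264), and with only the 6 libraries compared 0.24 ± 0.11 (adjusted p = 0.268). Rad + R788 + anti-PDL1 differed from Vehicle by -0.15 ± 0.29 (adjusted p = 0.813) and from R788 + anti-PDL1 by -0.35 ± 0.29 (adjusted p = 0.512). These values rested on irradiated replicate 1, and without it they were 0.18 and -0.04. The correlation of Axl with Mertk over the 9 libraries, r = 0.87, was 0.20 without that tumor.

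Tyro3 (ENSMUSG00000027298.17, chromosome 2, 119797733 to 119818104), the TAM receptor best known from the nervous system, had small errors and a narrow range. It stood at 57.6, 49.7 and 52.9 CPM in Vehicle tumors, 34.3, 48.2 and 38.2 CPM in R788 + anti-PDL1 tumors, and 49.9, 53.5 and 47.7 CPM in irradiated tumors. Each R788 + anti-PDL1 tumor lay below each Vehicle tumor, while irradiated tumors overlapped both groups. The difference on the log2 scale was -0.41 ± 0.19 in R788 + anti-PDL1 relative to Vehicle (unadjusted p = 0.0526, adjusted p = 0.437 in edgeR), -0.08 ± 0.18 in irradiated tumors relative to Vehicle (adjusted p = 0.833) and 0.33 ± 0.19 between the treated groups (adjusted p = 0.353). Over the 18 alternatives the first value ran from -0.56 to -0.31, the second from -0.14 to -0.02 and the third from 0.22 to 0.47, so none changed sign. Voom with sample quality weights called the first and the third, in fits that called 30.3% and 19.4% of all genes.

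Gas6 (ENSMUSG00000031451.6, chromosome 8, 13465374 to 13494490), the ligand of all TAM receptors, varied most within the irradiated group. It stood at 20.2, 8.31 and 9.92 CPM in Vehicle tumors, 11.4, 28.7 and 15.9 CPM in R788 + anti-PDL1 tumors, and 5.53, 5.18 and 47.7 CPM in irradiated tumors. Irradiated replicates 1 and 2 were the lowest of all tumors and irradiated replicate 3 the highest. The log2 fold changes were 0.55 ± 0.81, 0.61 ± 0.81 and 0.06 ± 0.81 (adjusted p = 0.854, 0.717 and 0.972). Without irradiated replicate 3 the differences of the irradiated tumors turned to -1.26 from Vehicle and -1.81 from R788 + anti-PDL1 (adjusted p = 0.298 and 0.139). Gas6 followed the macrophage marker sum (both as log2) with r = 0.82 over the 9 libraries, 0.88 without irradiated replicate 1 and 0.65 without irradiated replicate 3, the extreme point of both measures. Its most similar gene was Lyz2 (r = 0.92), which encodes the lysozyme of macrophages and neutrophils. Lyz2 made up 32.5% of the macrophage sum, so its r is not separate from that of the sum. The last exons of Gas6 and of Tmem255b on the other strand share 34 bases.

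**Figure D4:**
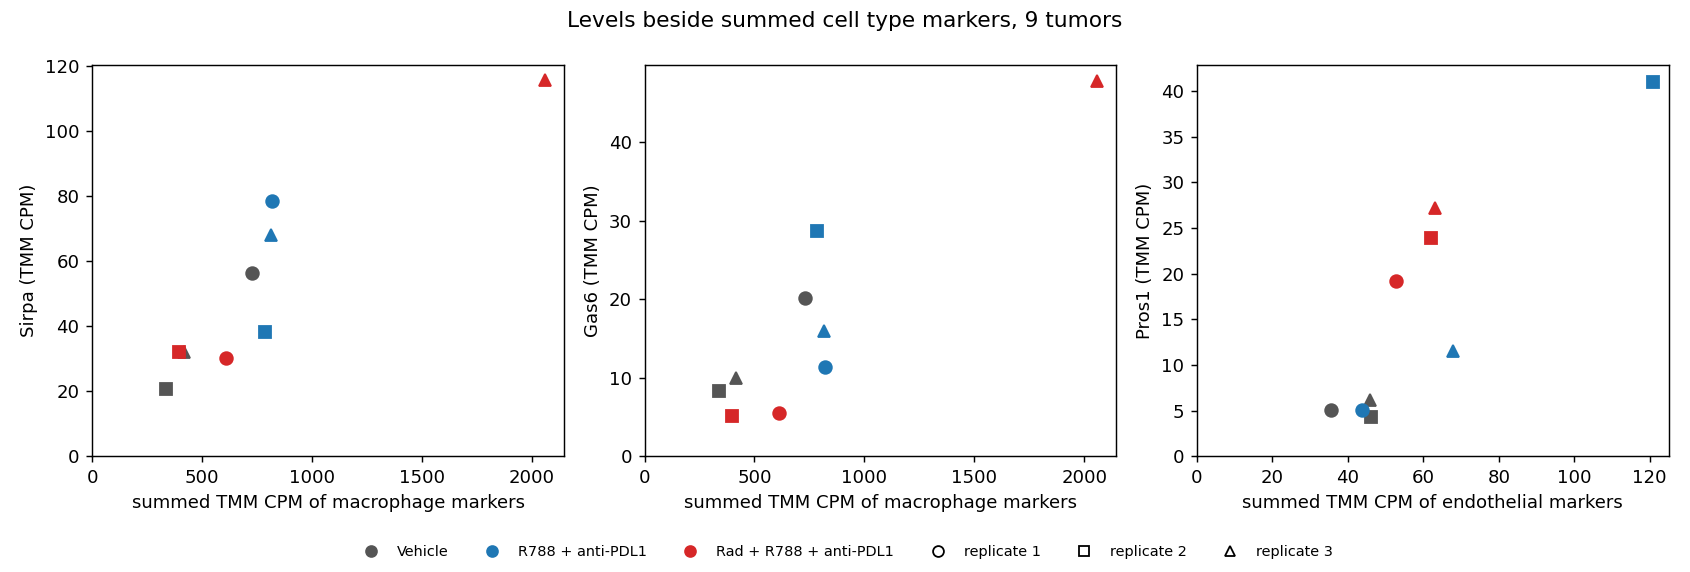
Sirpa and Gas6 (y axes, CPM) against the summed level of 13 macrophage markers and Pros1 against the summed level of 7 endothelial markers (x axes, CPM), with a point per tumor. Irradiated replicate 3 lies at the upper right for Sirpa and Gas6, and R788 + anti-PDL1 replicate 2 lies there for Pros1.

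Pros1 (ENSMUSG00000022912.8, chromosome 16, 62854307 to 62929346), which encodes the anticoagulant and TAM ligand protein S, showed the largest differences from Vehicle of the 10 genes. It stood at 5.08, 4.31 and 6.14 CPM in Vehicle tumors and at 19.2, 23.9 and 27.2 CPM in irradiated tumors. The lowest irradiated tumor lay above the highest Vehicle tumor, and Pros1 was the only one of the 10 genes without overlap here. Over all genes the groups of this comparison did not overlap for 20.5%, of which those higher in irradiated tumors were 9.27% of all genes. The mean of irradiated tumors, 23.4 ± 4.04 CPM (SD, n = 3), was 4.53 times the Vehicle mean of 5.18 ± 0.917 CPM. The log2 fold change was 2.18 ± 0.64 (unadjusted p = 0.00714, adjusted p = 0.265 in edgeR), and 2.69% of all genes ranked at or before Pros1 by p-value. Over the 18 alternatives it ran from 2.06 to 2.34, with adjusted p-values from 0.013 to 0.706, and it was called by DESeq2 (2.21, adjusted p = 0.0167) and by voom with sample quality weights (2.18, adjusted p = 0.013).

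In R788 + anti-PDL1 tumors Pros1 stood at 5.03, 41.0 and 11.6 CPM. Replicate 1 was at the Vehicle level, replicate 2 was the highest of all tumors and replicate 3 lay between. The log2 fold change from Vehicle was 1.89 ± 0.63 (unadjusted p = 0.0143, adjusted p = 0.260 in edgeR), and DESeq2 called it (1.92, adjusted p = 0.041). Without R788 + anti-PDL1 replicate 2 it was 0.68. Over the 18 alternatives it ran from 0.68 to 2.34, with adjusted p-values from 0.041 to 0.616. Between the treated groups the value was 0.29 ± 0.61 (adjusted p = 0.810), and it was 1.498 without R788 + anti-PDL1 replicate 2 and -0.16 without R788 + anti-PDL1 replicate 1. Whether Pros1 differed between the treated groups was thus not settled by these 6 tumors.

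Protein S is made by hepatocytes and endothelial cells, among others. The 7 endothelial markers summed to 35.6 to 46.1 CPM in Vehicle tumors, 43.8, 121 and 67.8 CPM in R788 + anti-PDL1 tumors, and 52.7 to 63.1 CPM in irradiated tumors, and all 7 had more than 3 counts in every tumor. Over the 9 libraries Pros1 followed this sum with r = 0.83, and its most similar genes were Cd34 (r = 0.97), Dhx38 (r = 0.97) and Pecam1 (r = 0.96), of which Cd34 and Pecam1 encode surface proteins of endothelium. Pecam1 made up 41.5% of the endothelial sum, so its r is not separate from that of the sum. Pros1 also followed 8 fibroblast markers, with r = 0.64, 0.91 without irradiated replicate 1 and 0.46 without R788 + anti-PDL1 replicate 2. The sum of 5 keratinocyte markers, 94.9% of it Krt5, also followed Pros1 (r = 0.91), at 7.95 to 8.60 CPM in Vehicle, 2.16, 64.2 and 23.98 CPM in R788 + anti-PDL1 and 47.4 to 75.7 CPM in irradiated tumors. Of the other 4 markers, Trp63 had 4 to 79 counts and was above 0 in all 9 tumors, while Krt14, Krt1 and Krt10 had at most 43, 1 and 10 counts. The part of other cells in the Pros1 values was not tested.

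The balance of the ligands followed from these levels. Per exon length, Gas6 was 6.37, 3.09 and 2.59 times Pros1 in Vehicle tumors. The ratio was 3.65, 1.12 and 2.21 in R788 + anti-PDL1 tumors and 0.463, 0.347 and 2.81 in irradiated tumors. On this scale Pros1 thus exceeded Gas6 in irradiated replicates 1 and 2 and in none of the other 7 tumors. In R788 + anti-PDL1 replicate 2, Pros1 had the higher CPM (41.0 against 28.7), so the order in that tumor rested on the exon lengths. The ratio does not depend on the scaling of a library, and the irradiated and Vehicle ranges overlapped because of irradiated replicate 3.

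**Figure D5:**
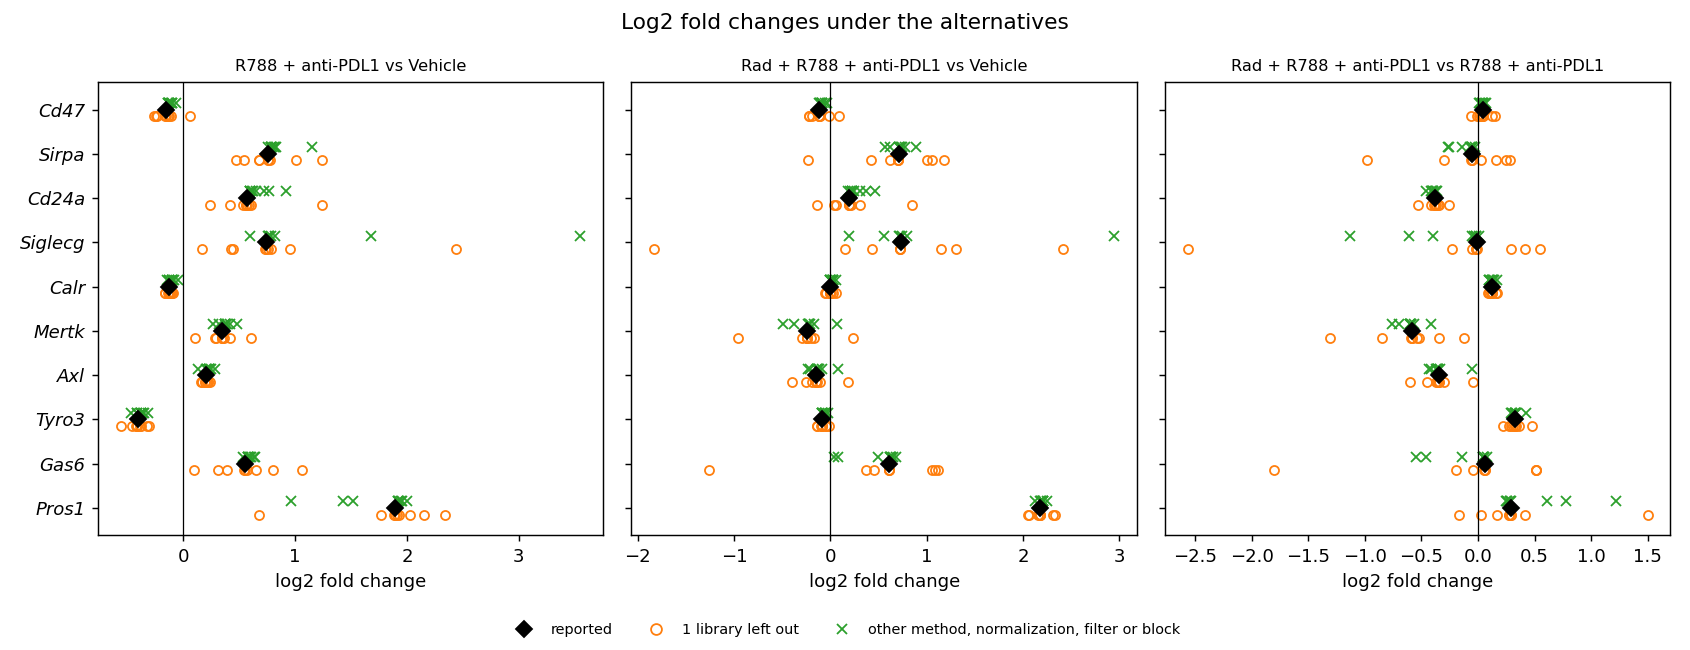
Log2 fold change (x axis) of each gene in the 3 comparisons as reported (diamonds), with 1 library left out (circles) and under other methods, normalizations, filters or the block (crosses). Pros1 stays between 2.06 and 2.34 in irradiated tumors relative to Vehicle, and Gas6 crosses 0 where irradiated replicate 3 is left out.

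Of 11 partners of CD47 and SIRP alpha, all were tested and 0 passed the adjusted threshold in any comparison, while 1, 1 and 0 had an unadjusted p-value under 0.05 in the 3 comparisons, both higher (11.7%, 13.2% and 18.4% of all genes had one). Thbs2, a thrombospondin of the family that binds CD47, stood at 14.1 ± 1.97 CPM in R788 + anti-PDL1 and 4.45 ± 3.81 CPM in Vehicle tumors (log2 fold change 1.67 ± 0.54, adjusted p = 0.248). Its relative Thbs1 was at 0.76 ± 0.35 in the same comparison (adjusted p = 0.440) and at -0.62 ± 0.35 between the treated groups (adjusted p = 0.347). Sirpb1a and Sirpb1c, activating relatives of Sirpa, were at 2.08 ± 0.76 and 1.24 ± 0.65 in irradiated tumors relative to Vehicle (adjusted p = 0.324 and 0.413). Sirpb1c was at 1.44 ± 0.65 between the treated groups (adjusted p = 0.275). These values rested on irradiated replicate 3, where Sirpb1a stood at 3.65 CPM against 0.885 and 0.457 CPM in the other two irradiated tumors and Sirpb1c at 4.57 CPM against 1.401 and 1.42 CPM. Without it Sirpb1a was at 0.75, and Sirpb1c at 0.43 and 0.63. Sirpa shares 0.0392% of its 31-base words with other genes.

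Of 8 other Siglecs, 4 had enough counts and 0 passed the adjusted threshold, while 0, 2 and 0 had an unadjusted p-value under 0.05, both higher, beside 11.7%, 13.2% and 18.4% of all genes. Cd22, a B cell Siglec, was at 1.67 ± 0.83 in R788 + anti-PDL1 and 2.47 ± 0.84 in irradiated tumors relative to Vehicle (adjusted p = 0.495 and 0.301), with 0.80 ± 0.78 between the treated groups (adjusted p = 0.580), and its exons overlap a gene on the other strand. Siglec1, the macrophage sialoadhesin, stood at 13.1 ± 1.73 CPM in R788 + anti-PDL1 against 4.66 ± 1.36 CPM in Vehicle tumors (1.49 ± 1.095, adjusted p = 0.687). Siglece was at 1.72 ± 0.63 in irradiated tumors relative to Vehicle (adjusted p = 0.327) and at 0.94 ± 0.61 between the treated groups (adjusted p = 0.404). Cd22 stood at 0.959, 2.99 and 10.2 CPM in irradiated tumors. Without irradiated replicate 3 Cd22 was at 1.21 from Vehicle and -0.45 between the treated groups, and Siglece at 1.01 and 0.23.

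Of 14 genes of TAM ligand maturation, shedding and signalling, 13 were tested and 0 passed. An unadjusted p-value under 0.05 was obtained for 2 (both lower), 3 (2 higher) and 2 (both higher) in the 3 comparisons, beside 11.7%, 13.2% and 18.4% of all genes. Socs1, a suppressor of cytokine signalling that TAM receptors are known to induce, stood at 24.5, 14.9 and 19.1 CPM in Vehicle, 7.50, 12.3 and 9.47 CPM in R788 + anti-PDL1, and 21.6, 20.96 and 19.4 CPM in irradiated tumors. R788 + anti-PDL1 tumors lay below both other groups without overlap, with -0.995 ± 0.26 from Vehicle (edgeR adjusted p = 0.143). Irradiated tumors were 1.08 ± 0.26 above them (adjusted p = 0.184). Over all genes, 16.5% were lower without overlap in the former comparison and 14.2% higher without overlap in the latter. Socs3 was at -0.95 ± 0.40 in R788 + anti-PDL1 relative to Vehicle (adjusted p = 0.396). Tulp1, named as a further TAM ligand, stood at 34.4, 11.8 and 12.3 CPM in irradiated and 3.68 to 8.01 CPM in Vehicle tumors (1.78 ± 0.47, adjusted p = 0.221), and was 1.75 ± 0.47 above R788 + anti-PDL1 (adjusted p = 0.203). Without irradiated replicate 1 these were 1.11 and 1.07. Vav1, a signalling protein of blood cells, was at 1.85 ± 0.61 in irradiated tumors relative to Vehicle (adjusted p = 0.287) and 1.004 without irradiated replicate 3. Genes for the carboxylation of Gas6 and protein S (the carboxylase Ggcx, and Vkorc1 and Vkorc1l1) were not among the genes with the lowest p-values.

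Of 22 other receptors and bridges for apoptotic cells, 18 were tested and 0 passed. The unadjusted threshold was met by 3 (2 higher), 7 (6 higher) and 6 (5 higher) in the 3 comparisons, beside 11.7%, 13.2% and 18.4% of all genes, of which 5.96%, 7.71% and 11.7% were higher. Cd36, a scavenger receptor, stood at 3.61, 7.41 and 12.01 CPM in irradiated tumors, below all Vehicle (16.3 to 32.6 CPM) and all R788 + anti-PDL1 tumors (28.0 to 34.4 CPM). Its log2 fold changes were -1.59 ± 0.41 and -2.03 ± 0.42 (edgeR adjusted p = 0.221 and 0.139). Over all genes, 11.2% and 13.2% were lower without overlap in these comparisons. Stab1, a phosphatidylserine receptor of macrophages and sinus endothelium, was at 1.90 ± 0.59 in irradiated tumors relative to Vehicle (adjusted p = 0.271), with 127, 25.8 and 197 CPM in the irradiated tumors and 1.29 without irradiated replicate 3. Megf10 and Stab2 were at 2.12 ± 0.65 and 2.73 ± 1.03 in R788 + anti-PDL1 relative to Vehicle (edgeR adjusted p = 0.218 and 0.339). In Vehicle tumors Megf10 stood at only 1.55, 0.314 and 0.438 CPM and Stab2 at 0.828, 0.0898 and 0.603 CPM. The size of these differences thus rested on few counts. Ager was at 1.86 ± 0.52 between the treated groups (adjusted p = 0.216).

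Of 15 genes of the engulfment machinery, 14 were tested and 0 passed, with 1 (higher), 1 (lower) and 1 (lower) at the unadjusted threshold, beside 11.7%, 13.2% and 18.4% of all genes. Abca1, a lipid transporter used after uptake of dead cells, stood at 73.1 to 91.1 CPM in R788 + anti-PDL1 and 35.9 to 45.5 CPM in Vehicle tumors (1.04 ± 0.42, adjusted p = 0.374). The adaptor Crk was at -0.60 ± 0.17 in irradiated tumors relative to Vehicle (adjusted p = 0.234) and at -0.40 ± 0.17 between the treated groups (adjusted p = 0.254). The GTPase Rac2 of blood cells was at 1.34 ± 0.68 and 1.27 ± 0.68 against Vehicle (adjusted p = 0.506 and 0.417), but irradiated tumors stood at 5.97, 8.57 and 37.8 CPM, and without irradiated replicate 3 the second value was 0.0053. Rxra was at 0.28 ± 0.17 between the treated groups (adjusted p = 0.391). Of 10 genes of phosphatidylserine exposure, 8 were tested and 0 passed, with 2 (both lower), 1 (lower) and 1 (higher) at the unadjusted threshold, against the same shares of all genes. Atp11a, a flippase that returns phosphatidylserine to the inner leaflet, stood at 474 to 552 CPM in Vehicle, 266, 110.0 and 232 CPM in R788 + anti-PDL1, and 238 to 271 CPM in irradiated tumors. Both treated groups lay below Vehicle without overlap, with -1.32 ± 0.30 (edgeR adjusted p = 0.0932) and -0.99 ± 0.30 (adjusted p = 0.265). Over all genes, 16.5% and 11.2% were lower without overlap in these comparisons. Of the exons of Atp11a, 371 bases overlap Gm15347 and Gm15350 on the other strand. The scramblase gene Plscr1 was at -0.62 ± 0.25 and 0.55 ± 0.25 against Vehicle (adjusted p = 0.370 and 0.381) and at 1.18 ± 0.25 between the treated groups (adjusted p = 0.156). Ano6 was at -0.72 ± 0.38 there (adjusted p = 0.322) and at -0.33 without irradiated replicate 1.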

How the data were processed

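The authors mapped reads to mouse build mm10 with STAR (2.6.1d) and quantified them with Salmon (1.4.0). Values in the deposited table were estimated counts for each gene symbol, in whole numbers and not normalized. Strandedness and the annotation release were not given in the sources used here, and the labels' tissue is whole tumor although their RNA extraction text speaks of macrophages. Genes were filtered with filterByExpr (minimum count 10), scaled by TMM and fitted with the edgeR 4.0.16 robust quasi-likelihood F test (R 4.3.3) over all 9 libraries with 1 mean for each group. Tests were two-sided, adjusted by Benjamini-Hochberg over 15931 genes, and called at 0.05. SE was taken as the log2 fold change over the square root of F. No permutation test was run, since 3 tumors per group are too few for one to pass.

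Alternatives were DESeq2 1.42.0, limma-voom (3.58.1) without and with sample quality weights, RLE and upper-quartile factors, no filter, at least 10 counts in every library, only the 6 libraries compared, a replicate block, and leaving out each library (for the pathway genes, chosen after seeing the data). Log2 CPM for correlations used a prior count of 2. The genes, marker lists and pathway lists were chosen with earlier results of these data known. All 10 genes were described. From each pathway list, genes called or else the 2 with the lowest p-value per comparison were named. Identifiers, positions, exon lengths and 31-base words came from GENCODE M21 (GRCm38), in which each of the 10 symbols had 1 identifier, and promoters from RefSeq (GRCm38.p6). The fit was also run on simulated data. These were given less spread between libraries than the tumors had, so that run does not show the power or error rate of the tests here. Libraries of a group differed by more than sampling noise (chi-square per degree of freedom from 13.2 to 340.0).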

Additional observations from a re-analysis of the deposited data

How the results depend on the processing

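Of 30 single log2 fold changes, 16 kept their sign in every alternative run and 14 did not. Among the latter no value had an edgeR adjusted p-value under 0.05. The number of the 10 genes called went from 0 to 1 with DESeq2 for each treated group relative to Vehicle (Pros1 in both). With voom and sample quality weights it went from 0 to 3 (Cd24a, Siglecg and Tyro3), 1 (Pros1) and, between the treated groups, 2 (Tyro3 and Pros1). It stayed at 0 in every other alternative. The cause was not tested.

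In irradiated tumors relative to Vehicle, Calr had a reported value of -0.0044 and turned to 0.025 with DESeq2, 0.025 with voom and quality weights, 0.025 with RLE factors, 0.058 with upper-quartile factors, 0.020 with at least 10 counts in every library and 0.0034 with only the 6 libraries. With voom and quality weights Axl turned to 0.080 and Mertk to 0.067. Between the treated groups Gas6 turned to -0.55 with voom, -0.14 with voom and quality weights and -0.46 with the replicate block, and Siglecg turned to 0.013 with only the 6 libraries. Leaving out 1 library at a time gave, in irradiated tumors relative to Vehicle, Axl -0.40 to 0.18, Calr -0.051 to 0.063, Cd24a -0.13 to 0.85, Cd47 -0.22 to 0.090, Gas6 -1.26 to 1.12, Mertk -0.96 to 0.24, Siglecg -1.83 to 2.42 and Sirpa -0.23 to 1.18. Cd47 ran from -0.26 to 0.061 in R788 + anti-PDL1 relative to Vehicle. Between the treated groups the ranges were -0.060 to 0.15 for Cd47, -1.81 to 0.52 for Gas6, -0.16 to 1.498 for Pros1, -2.56 to 0.55 for Siglecg and -0.98 to 0.29 for Sirpa.

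Replicate numbers are shared by the groups in the labels. Deviations of same-numbered libraries from their group means correlated at -0.05 to 0.23, and those of differently numbered libraries at -0.23 to 0.12. With 3 libraries per group these values cannot decide whether the numbers pair the tumors. With the replicate block 0 of the 10 genes were called in each comparison, and the calls over all genes went from 108, 7 and 1 to 0, 3 and 0. In R788 + anti-PDL1 relative to Vehicle the calls over all genes rose to 856 without irradiated replicate 1 and to 594 with only the 6 libraries. Both fits called 0 of the 10 genes. Upper-quartile factors moved the median of all genes in irradiated tumors relative to Vehicle to 0.11. Siglecg could not be fitted with at least 10 counts in every library, nor in irradiated tumors relative to Vehicle with only the 6 libraries.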

Other observations

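For each of the 10 genes, the genes with the most similar log2 CPM over the 9 libraries were sought among 9636 genes with a mean of at least 10 CPM. The points share libraries, depth and scaling, so r is a description with no p-value. The nearest genes of Sirpa were Tlr2 (r = 0.97), C3ar1 (r = 0.95) and Adgre1 (r = 0.95), which encode a toll-like receptor, a complement receptor and F4/80. Those of Gas6 were Lyz2 (r = 0.92), Vsir (r = 0.91) and F13a1 (r = 0.91), and those of Siglecg were Vsir (r = 0.96), Dock2 (r = 0.89) and C5ar1 (r = 0.89). Vsir, which encodes the checkpoint protein VISTA, thus stood near both. Without irradiated replicate 1 these values were between 0.84 and 0.97. Irradiated replicate 3 was the highest tumor for Sirpa, Gas6 and Siglecg, and how these values change without it was not tested. Adgre1 and Lyz2 are also among the 13 macrophage markers summed above.

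Mertk was nearest to Tmem104 (r = 0.99), Fam53b (r = 0.98) and Capza2 (r = 0.98), and Axl to Nhlrc3, Slc16a6 and Etv3 (r = 0.99 each). Without irradiated replicate 1 these 6 values were 0.89 to 0.95. Tyro3 was nearest to Grpel2, Pnrc2 and Wdr55 (r = 0.98, 0.98 and 0.97), Calr to Tmem5, Zc4h2 and Erf (r = 0.94, 0.93 and 0.93), Cd47 to Hoxc4, Aasdhppt and Ocel1 (r = 0.91, 0.90 and 0.88), and Cd24a to Cd9, Adh7 and Aggf1 (r = 0.96, 0.90 and 0.90). Erythroid markers summed to 201 to 625 CPM in Vehicle tumors and 48.9 to 183 CPM in the 6 treated tumors. T cell markers, with 72.2% of their sum from Cd4, summed to 1.70 to 3.98 CPM and 1.84 to 33.6 CPM in the same order. The part of these cells in the values of the 10 genes was not tested.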
